A study of Homo sapiens with 6 samples.

Results

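The genes described here are 7 receptor tyrosine kinases (EGFR, ERBB2, ERBB3, MET, FGFR4, IGF1R and INSR) and 3 ligands (AREG, EREG and FGF19), 10 genes of 58233 listed. They were found by gene symbol, and FPKM (fragments divided by transcript length and by depth) were summed over each gene's transcripts. RNA was sequenced from cells labelled Huh7, an established human hepatocellular carcinoma line. The control group was 3 libraries of cells transfected with an empty plasmid, and the TP53TG1 group was 3 libraries of cells transfected with a plasmid that overexpresses TP53TG1, a long noncoding RNA. Transfection was common to both groups, and neither the time after it nor the promoter of the plasmid is given in the sources used here. Whether the replicates came from separate cultures is not in the labels, and p-values therefore measure a spread that may be technical. The comparison addresses how gene expression in these cells differs with the TP53TG1 plasmid. A total of 9 of the 10 genes reached the level required for testing, 1 FPKM or more on average across libraries. FGF19 was listed at 0 in all 6 libraries and was not tested.

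Receptor tyrosine kinases are single-pass membrane proteins whose intracellular kinase is, in most of them, switched on by the binding of a ligand. The phosphorylated tails recruit adaptor proteins that feed the RAS-MAPK and PI3K-AKT pathways, and ubiquitin ligases, phosphatases and Sprouty-type inhibitors turn the signal off. In the liver, MET with its ligand HGF and EGFR with its ligands drive hepatocyte growth and regeneration, insulin acts through INSR on glucose and lipid metabolism, and FGF19 from the gut acts through FGFR4 with the co-receptor beta-Klotho (KLB) to restrain bile acid synthesis.

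TP53TG1 itself lay at 10.6, 5.25 and 6.15 FPKM in control replicates 1, 2 and 3, and at 69.8, 134 and 70.5 FPKM in TP53TG1 replicates 1, 2 and 3, so every library fitted its label. The log2 fold change between groups came to 3.46 (SE 0.381, adjusted p = 0.0573, limma with Benjamini-Hochberg adjustment), and 3.82 (adjusted p = 0.0404) after median-of-ratios scaling, which divides each library by the median ratio of its genes to their mean over the libraries. The scaling factors were 1.13 to 1.17 in the control libraries and 0.621, 1.08 and 1.00 in TP53TG1 replicates 1 to 3, and the 12853 tested genes had a median log2 fold change of -0.35 before and -0.02 after scaling. Depth read from the smallest values came to 16300000 to 21600000 fragments per library, an estimate that depends on the limits chosen for it. Of 12 hepatocyte markers 9 averaged 1 FPKM or more, but ALB, the most abundant hepatocyte mRNA, lay between 0.53 and 1.22 FPKM and TTR between 0 and 0.17 FPKM. Of 7 intestinal epithelium markers 5 had such a mean, with KRT20 between 51.1 and 171 FPKM and LGALS4 between 3.21 and 135 FPKM, and CDX1 was listed at 0. The summed level of the hepatocyte list was 118 to 132 FPKM in the controls and 52.4 to 110 FPKM with TP53TG1, and that of the intestinal list 180 to 347 and 92.1 to 157 FPKM. A list of 6 fibroblast markers summed to 19.1 to 21.5 FPKM in the controls and 22.6 to 32.5 FPKM with TP53TG1, 6 leukocyte markers to 33.2 to 64.9 and 47.2 to 66.2 FPKM, and 4 endothelial markers to 6.84 to 12.2 and 1.92 to 9.1 FPKM, with PTPRC at most 0.13 and CDH5 at most 0.03 FPKM. These sums are in deposited FPKM, and scaled sums are not given here. In deposited FPKM, 13.3% of the tested genes had all TP53TG1 libraries below the controls and 0.428% all above. The part of the markers in the results below was not tested.

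MET, the receptor for hepatocyte growth factor (chr7:116672390-116798386, GRCh38, plus strand), was the most abundant receptor mRNA in every library. Its level was 146, 1483 and 1485 FPKM in control replicates 1 to 3 and 60.6, 1498 and 1006 FPKM in TP53TG1 replicates 1 to 3. Both libraries numbered 1 were low and the other 4 high, whatever the plasmid, and the groups overlapped. MET made up 75.2% to 96.2% of the summed FPKM of the 7 receptors. Among the 58233 genes of a library it ranked 62nd and 59th in control replicates 2 and 3 and 49th and 89th in TP53TG1 replicates 2 and 3, but 763rd and 1132nd in the libraries numbered 1. The mean was 1038 ± 772 FPKM in control and 855 ± 731 FPKM with TP53TG1 (SD, n = 3). The log2 fold change, TP53TG1 minus control on the log2(FPKM + 1) scale, was -0.60 with a 95% interval of -3.43 to 2.22 (adjusted p = 0.8, limma), an interval that includes large differences in either direction.

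EGFR, the receptor for EGF, AREG and EREG (chr7:55019021-55211628, plus strand), lay at 5.69, 11.9 and 21.4 FPKM in control replicates 1 to 3 and at 3.52, 14.9 and 19.2 FPKM in TP53TG1 replicates 1 to 3. Replicate 1 was the lowest and replicate 3 the highest library in both groups, and the groups overlapped over nearly their whole range. EGFR had a log2 fold change of -0.14 (SE 0.637, adjusted p = 0.905, limma), and 0.20 after scaling, the opposite sign. ERBB2, the ligandless partner of the family (chr17:39687914-39730426, plus strand), lay at 5.76, 6.04 and 6.87 FPKM in control and at 2.53, 7.14 and 4.57 FPKM with TP53TG1. Its control libraries were close together, and TP53TG1 replicate 2 lay above all of them while the other two lay below. ERBB3, a neuregulin receptor with little kinase activity that signals through its partners (chr12:56076799-56103505, plus strand), lay at 11.1, 6.5 and 6.08 FPKM in control and at 4.06, 7.38 and 2.41 FPKM with TP53TG1. Control replicate 1 was the highest library for ERBB3, and the lowest control library for EGFR and MET. ERBB4, the remaining receptor of the family, was listed at 0 in all 6 libraries.

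FGFR4, the FGF receptor through which FGF19 acts on hepatocytes (chr5:177086886-177098144, plus strand), lay at 14.5, 22.5 and 15.5 FPKM in control and at 6.41, 13.7 and 11.4 FPKM with TP53TG1. All 3 TP53TG1 libraries were below all 3 control libraries, and this was also so after scaling, with 12.8 to 19.3 scaled FPKM in control and 10.3 to 12.7 with TP53TG1. The means were 17.5 ± 4.37 and 10.5 ± 3.72 FPKM (SD, n = 3). On either scale p was 0.1 in an exact permutation test (two-sided), the smallest value that 3 against 3 libraries allow. The log2 fold change was -0.72 (SE 0.372, 95% interval -1.56 to 0.13) and did not pass over all genes (adjusted p = 0.748, limma). FGFR4 was the only one of the 9 tested genes whose groups did not overlap. Over all tested genes, 13.3% had TP53TG1 libraries that all lay below the controls in deposited FPKM and 2.15% in scaled FPKM (0.428% and 2.01% all above), so 1 gene of 9 is near the first share and is a single gene against the second.

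IGF1R, the receptor for IGF1 and IGF2 (chr15:98648539-98964530, plus strand), lay at 5.14, 16.7 and 13.2 FPKM in control and at 1.71, 10.1 and 6.67 FPKM with TP53TG1. The groups overlapped because control replicate 1 was low, but within each replicate number the TP53TG1 library was the lower one. Its log2 fold change of -0.92 (SE 0.6, 95% interval -2.28 to 0.44) was the lowest of the 9 genes and did not pass (adjusted p = 0.748, limma). Without 1 short transcript form, IGF1R-204, it was -0.70 (adjusted p = 0.748, limma) and no longer the lowest. INSR, the insulin receptor (chr19:7112255-7294034, minus strand), lay at 2.59, 5.25 and 7.32 FPKM in control and at 1.73, 6.13 and 2.67 FPKM with TP53TG1. It had the lowest mean of the 7 receptors, and its groups overlapped. Its log2 fold change was -0.46, and -0.17 after scaling; without the retained-intron transcript INSR-203 it was -0.23, and 0.05 after scaling, the opposite sign.

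The ligand AREG (amphiregulin, chr4:74445134-74455009, plus strand) lay at 126, 76.3 and 191 FPKM in control and at 119, 115 and 47.1 FPKM with TP53TG1. EREG (epiregulin, chr4:74365143-74388751, plus strand), which like AREG is cut from the membrane and binds EGFR, lay at 44.2, 70.2 and 117 FPKM in control and at 34.5, 108 and 32.8 FPKM with TP53TG1. Control replicate 3 was the highest library for both genes and TP53TG1 replicate 3 the lowest. Of the summed FPKM of 7 ligands of the EGF family, AREG and EREG held 94.2% ± 0.695 in control and 94.3% ± 3.61 with TP53TG1 (SD, n = 3; exact two-sided permutation test, p = 1), and EGF, TGFA, HBEGF, BTC and EPGN shared the rest. BTC (betacellulin) was next, at 3.37 to 9.74 FPKM. The ratio of AREG to EREG was 2.86, 1.09 and 1.62 in control replicates 1 to 3 and 3.46, 1.07 and 1.44 in TP53TG1 replicates 1 to 3, in the same order of replicate numbers in both groups.

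**Figure D1:**
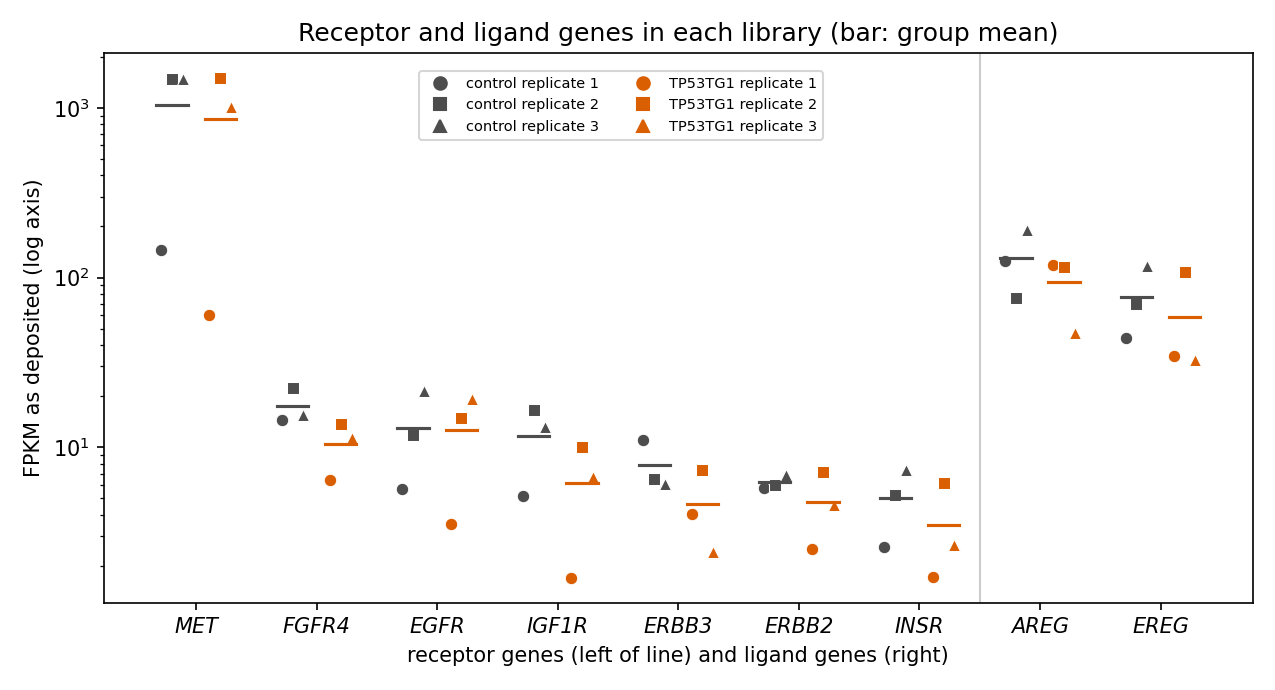
FPKM as deposited (log axis) of the 7 receptor genes and of AREG and EREG in each of 3 control and 3 TP53TG1 libraries, with a bar at each group mean. FGF19, listed at 0, is not drawn; MET spans 60.6 to 1498 FPKM with both libraries numbered 1 low, and FGFR4 is the gene whose groups do not overlap.

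By control mean the order was MET, AREG, EREG, FGFR4, EGFR, IGF1R, ERBB3, ERBB2, INSR and FGF19. The ranges of EREG and FGFR4 did not overlap in either group, with EREG at 32.8 FPKM or more and FGFR4 at 22.5 FPKM or less in the 6 libraries, which set MET and the EGFR ligands apart from the other receptors. Every other pair of neighbours from MET to INSR overlapped in both groups. Within libraries, AREG was above EREG in 6 of 6, and MET was above AREG in 5 of 6, the exception being TP53TG1 replicate 1. FGFR4 was above EGFR in 3 of 6 libraries, EGFR above IGF1R in 5, IGF1R above ERBB3 and ERBB3 above ERBB2 in 4, and ERBB2 above INSR in 5.

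Set beside their ligands, the receptors fell into unlike cases. For EGFR, 2 ligand mRNAs were more abundant per length than the receptor itself in every library. For ERBB3, the ligand gene NRG1 (neuregulin 1) lay at 9.05 to 13.2 FPKM in control and 12.8 to 15.1 FPKM with TP53TG1. For MET the ligand HGF reached at most 0.32 FPKM, for IGF1R the ligands IGF1 and IGF2 at most 0.01 and 0.14 FPKM, and for INSR the gene INS was listed at 0. For FGFR4, FGF19 was listed at 0, FGF1 reached 0.17 FPKM, FGF2 lay between 2.33 and 8.08 FPKM, and KLB, which FGF19 needs to bind, lay between 0.02 and 0.07 FPKM. Among genes of the hepatocyte response to FGF19, CYP7A1, the first enzyme of bile acid synthesis, reached 0.06 FPKM, NR1H4, the bile acid receptor, 0.03 FPKM, and NR0B2 was listed at 0. HNF4A, a hepatocyte transcription factor, was the 1 gene of 9 on that list to be tested (log2 fold change -0.51, adjusted p = 0.748, limma).

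None of the 9 tested genes passed the adjusted threshold of 0.05, where 1 of 12853 tested genes (0.00778%) did. That gene, named after its values were seen, was a small noncoding RNA, TTC28-AS1_2, with no signal listed in any control library and 61.3, 29.4 and 39.6 FPKM in TP53TG1 replicates 1 to 3. At an unadjusted p under 0.05 the counts were 0 of 9 and 302 of 12853 (2.35%). Log2 fold changes of the 9 genes ran from -0.92 to -0.14 with a median of -0.52, against -0.35 for all tested genes. All 9 were below 0, as were 91.4% of the tested genes. After scaling 0 of 9 passed, where 2 genes (0.0156%) did, and 0 of 9 had an unadjusted p under 0.05 (1.19% of all). The scaled median was -0.17 against -0.02, and 8 of 9 were below 0 against 53% of the tested genes, EGFR being the exception. The intervals are wide: after scaling, the 95% interval of ERBB2, the narrowest besides that of FGFR4, ran from -0.70 to 0.51.

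**Figure D2:**
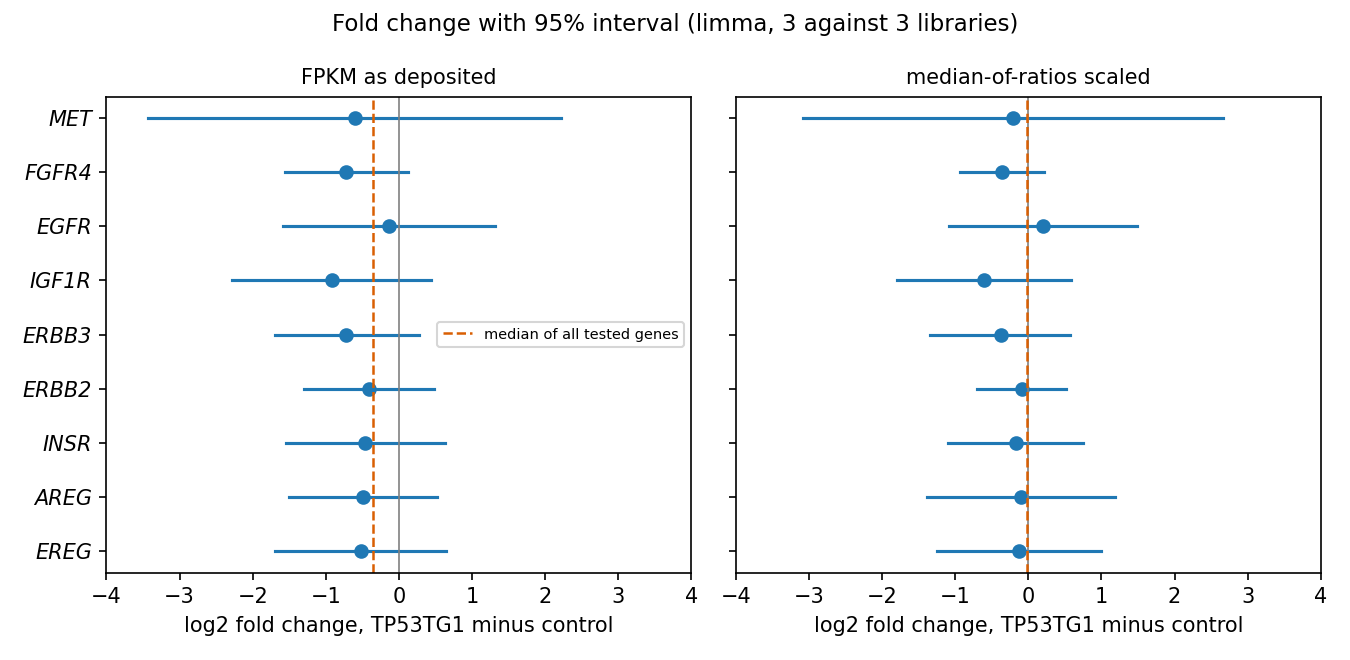
Log2 fold change (TP53TG1 minus control, on the log2(FPKM + 1) scale) of the 9 tested genes with 95% intervals, from deposited FPKM on the left and from scaled FPKM on the right. The dashed line is the median of all tested genes, -0.35 and -0.02, and all 9 intervals in each panel include 0.

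The replicate numbers give a second view, which rests mainly on the libraries numbered 1. Deviations from the group means correlated at 0.71, 0.562 and 0.289 between libraries numbered 1, 2 and 3. Those numbered 3 are not marked out as a pair, since control replicate 3 correlated at 0.4 with TP53TG1 replicate 2. In scaled FPKM, IGF1R in the TP53TG1 library was 0.60, 0.65 and 0.58 of that in the control library of the same number, for replicates 1, 2 and 3. Without the short form IGF1R-204 (572 nt), which had 5.25 of the 16.7 FPKM of control replicate 2 and was listed at 0 in every TP53TG1 library, these ratios were 0.60, 0.95 and 0.65. FGFR4 was 0.80, 0.66 and 0.85 of the control. These were the 2 of 9 genes lower in all 3 pairs, a pattern that 14.7% of the tested genes had, and in deposited FPKM the same 2 were (44.8% of the tested genes). EGFR was at 1.12, 1.36 and 1.04 times the control and the 1 of 9 higher in all 3 pairs, against 12.3% of the tested genes, and in deposited FPKM none of the 9 was (1.24%). AREG was at 1.72, 1.64 and 0.29 times the control and EREG at 1.42, 1.66 and 0.32, so both ligands were above the control in pairs 1 and 2 and far below it in pair 3. In deposited FPKM the direction in pair 1 turned, with AREG at 0.95, 1.51 and 0.25 times the control and EREG at 0.78, 1.53 and 0.28. ERBB3 and INSR were also lowest in pair 3, at 0.46 and 0.42 of the control.

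With the replicate number as a block in the limma fit, 192 of 12853 genes passed (1.49%), 75 higher (0.584%) and 117 lower (0.91%). None of the 9 did, with adjusted p from 0.203 for IGF1R to 0.783 for EGFR. At an unadjusted p under 0.05 the block counted 4 of 9 (IGF1R, MET, ERBB3 and FGFR4), against 10.7% of the tested genes. In this fit p rests on a variance shared by genes of like level, not on each gene's own spread over replicate numbers. ERBB3 counted although its deposited ratios to the control were 0.37, 1.14 and 0.40. With block and scaling together, 7 genes passed (0.0545%), again none of the 9, and IGF1R alone had an unadjusted p under 0.05 (0.00778, adjusted p = 0.77, limma), against 5.27% of the tested genes. Without IGF1R-204 its unadjusted p in that fit was 0.0726 (adjusted p = 0.889, limma).

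**Figure D3:**
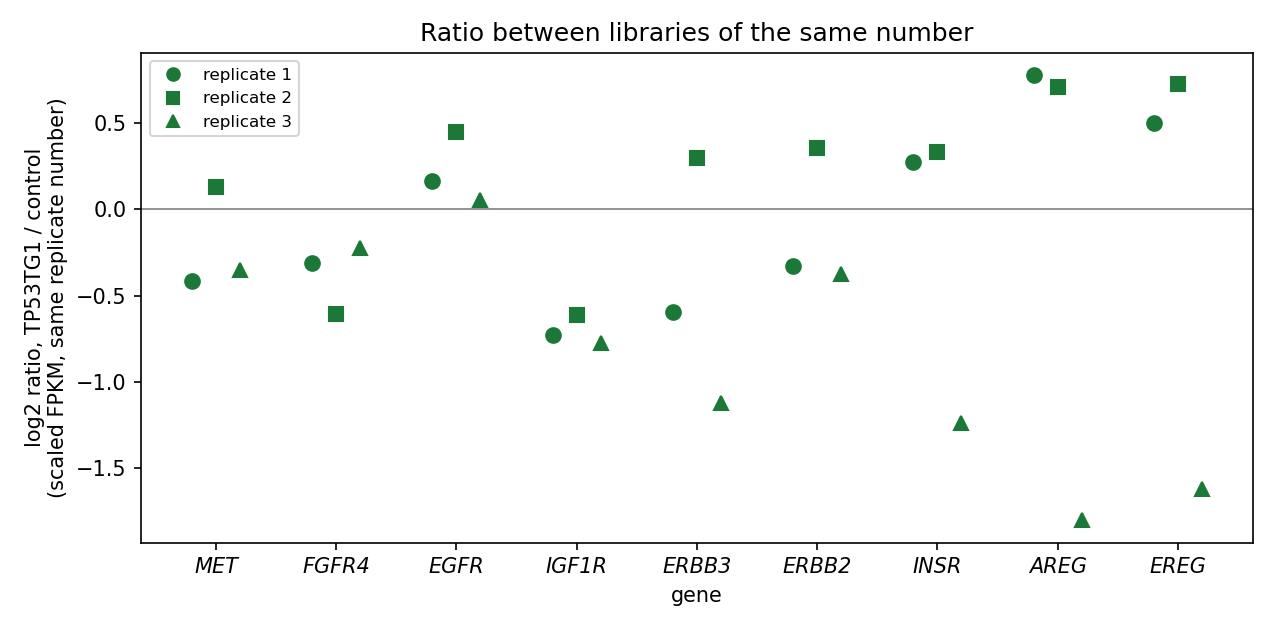
Log2 ratio of scaled FPKM between the TP53TG1 and the control library of the same replicate number, for each tested gene; markers give the replicate number and the line at 0 is no difference. IGF1R and FGFR4 lie below 0 and EGFR above 0 in all 3 pairs, while the scaled ratios of AREG and EREG are above 0 in pairs 1 and 2 and below in pair 3.

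The libraries numbered 1 stood apart from the other 4 in a way that followed transcript length, which bears on receptors because their mRNAs are long. Over 11273 protein-coding genes, the median log2 ratio of scaled FPKM (+ 1) in the libraries numbered 1 to the other 4 was 0.74 for genes with a mean transcript length of up to 1000 nt, -0.11 between 2000 and 3000 nt and -0.99 above 8000 nt. AREG, with 1239 nt, was at 0.66, made up of -0.04 in the control and 1.31 in the TP53TG1 group. FGFR4 with 2694 nt was at -0.27, ERBB2 with 3824 nt at -0.23, EREG with 4527 nt at -0.62 (-1.02 and -0.25 in the 2 groups) and INSR with 6494 nt at -0.71 (-0.96 and -0.45). IGF1R with 9060 nt and EGFR with 9327 nt were at -1.30 and -1.37. ERBB3, with 3252 nt, was at 0.61 and so above the median of -0.42 for genes of 3000 to 4000 nt. MET, with 5926 nt, was at -3.43, where genes of 4000 to 6000 nt had a median of -0.70 and quartiles of -1.07 and -0.33. The ratio of MET was the lowest of the 11273 genes, or the second lowest with factors taken from another set of genes, and the eighth and ninth lowest within the control and the TP53TG1 group (-3.29 and -3.60). Within the groups, the medians over all genes ran from 0.63 for the shortest to -0.95 for the longest genes in control and from 0.84 to -1.02 with TP53TG1. The part of transcript length in the differences between groups was not tested.

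**Figure D4:**
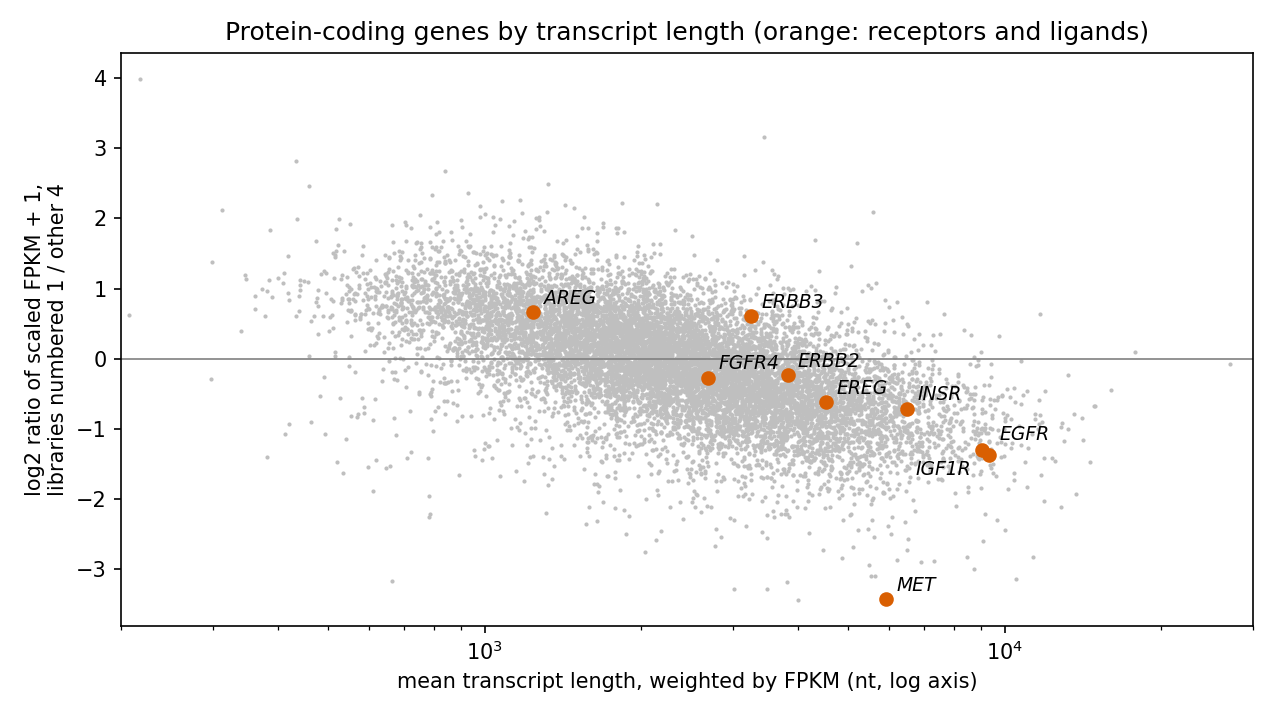
Log2 ratio of scaled FPKM + 1 in the 2 libraries numbered 1 to the other 4, against mean transcript length weighted by FPKM (nt, log axis), for 11273 protein-coding genes in grey and the 9 tested receptors and ligands in orange. The ratio falls with length; MET at -3.43 lies below genes of its length and ERBB3 at 0.61 above them.

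Transcripts of the receptors differ in short coding segments, 3 of which are shown because the deposited values list both forms. Exon 11 of INSR (chr19:7150497-7150532, GENCODE release 29, GRCh38, minus strand) is included in INSR-201 and skipped in INSR-202. It adds 36 bases, or 12 codons, near the end of the ligand-binding chain, and the form without it is the one that also binds IGF2 well. MET-201 uses 54 more bases of exon 10 (chr7:116759337-116759390, plus strand), or 18 codons, than MET-202. IGF1R-201 has 3 more bases (chr15:98929558-98929560, plus strand), or 1 codon, than IGF1R-206. Capitals mark the extra bases and lower case the 20 bases of transcript on each side:

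INSR exon 11: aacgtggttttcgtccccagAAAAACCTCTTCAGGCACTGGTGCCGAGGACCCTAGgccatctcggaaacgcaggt

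MET exon 10 extension: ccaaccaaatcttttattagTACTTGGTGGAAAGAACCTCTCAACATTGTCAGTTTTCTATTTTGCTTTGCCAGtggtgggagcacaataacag

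IGF1R codon: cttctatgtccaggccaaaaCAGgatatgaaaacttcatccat

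Transcript values are estimates that share reads between forms, and so are less certain than gene sums. INSR-201, with exon 11, made up 0.885%, 25% and 27.1% of INSR-201 and INSR-202 together in control replicates 1 to 3 and 1.35%, 25.5% and 13.9% in TP53TG1 replicates 1 to 3. The form without exon 11 was the larger in all 6 libraries, and both libraries numbered 1 had almost none of the other. Group means were 17.7% ± 14.6 and 13.6% ± 12.1 (SD, n = 3; exact two-sided permutation test, p = 0.8). The 2 annotated transcripts also differ in length, 4721 nt for INSR-201 and 8954 nt for INSR-202, so the longer one was the one kept in the libraries numbered 1.

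The MET form with the extension, MET-201, made up 0.179% to 0.715% of MET-201 and MET-202 together in the 6 libraries. MET-202 (6635 nt) held 61.9% to 89.2% of the gene's FPKM and carried the split between libraries, with 117 and 37.5 FPKM in control and TP53TG1 replicate 1 and 897 to 1317 FPKM in the other 4. MET-206 (767 nt) had the same split, 6.52 and 1.13 FPKM against 78.9 to 138 FPKM. MET-203 (688 nt) did not have it, with 20.9 and 21.4 FPKM in replicate 1 of either group and 20 to 34.4 FPKM elsewhere. The IGF1R form with the extra codon made up 58.8% ± 4.35 of IGF1R-201 and IGF1R-206 in control and 60.5% ± 11 with TP53TG1 (SD, n = 3). Of the whole gene, IGF1R-201 held 45.9%, 32.5% and 40.7% in control and 48.5%, 55.7% and 67.8% with TP53TG1, without overlap. The shares of EREG-201 in EREG did not overlap either, at 93.8% to 98.1% in control and 98.7% to 99.9% with TP53TG1. How many of all transcripts lay without overlap was not counted. For IGF1R, the control sums of replicates 2 and 3 include a short form, IGF1R-204, described next. IGF1R-204 (572 nt) and INSR-203 (a retained intron of 419 nt) had values in control replicates 2 and 3 only, 5.25 and 1.27 FPKM and 0.71 and 2.48 FPKM, and count in the gene sums of those libraries. In the other receptors a main form also shifted with the replicate number: ERBB2-204 held 70.5% and 81.0% of ERBB2 in both libraries numbered 1, against 14.3% to 32.6%, a 3289-nt form of ERBB3 held 48.7% and 77.1% of its gene against 9.54% to 21.7%, and FGFR4-201 held 80.9% and 93.6% of FGFR4 against 51.8% to 62.6%. Conversely ERBB2-201 held 7.12% and 0% of ERBB2 in those 2 libraries and 29.3% to 46.8% in the others, ERBB3-201 14.6% and 6.4% against 21.2% to 56%, and FGFR4-207 was listed at 0 in them and held 11.6% to 22.9% in the others. A 1027-nt form of ERBB3 ranged from 12.6% to 64.3%. EGFR-201 held 91.3% to 97.2% of EGFR, EREG-201 93.8% to 99.9% of EREG and AREG-201 at least 99.7% of AREG.

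**Figure D5:**
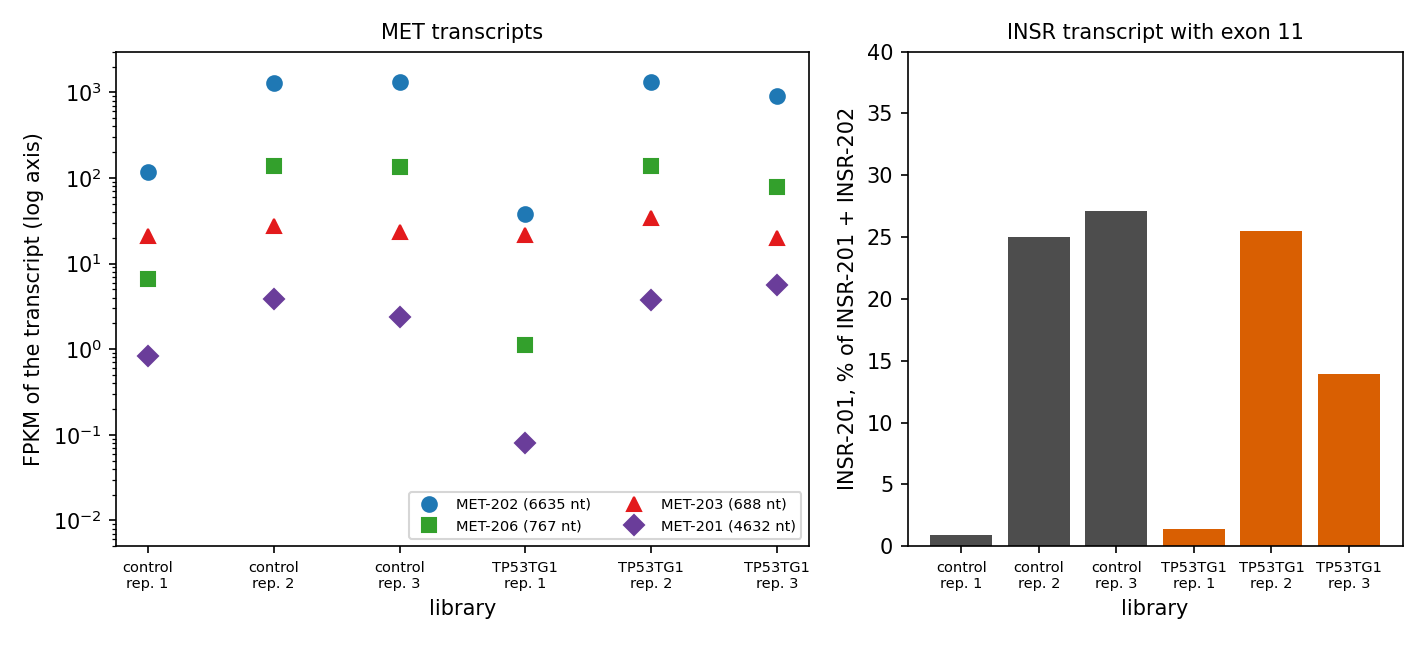
Left, FPKM of 4 MET transcripts in each library (log axis); right, INSR-201 as a percentage of INSR-201 and INSR-202 in each library. MET-202, MET-206 and the exon 11 form of INSR are low in both libraries numbered 1, while MET-203 stays between 20 and 34.4 FPKM in all 6.

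AREG and EREG are neighbours on chromosome 4, with 56383 nt from the end of EREG to the start of AREG. Their promoter windows, from 250 bases before to 50 after the start site (RefSeq, GRCh38.p14, 10 windows of 8 of the 10 genes matched), are printed because the ratios of both genes to the control, given above, went the same way in each pair on either scale. That pattern is not particular to these genes. INSR (scaled ratios 1.21, 1.26 and 0.42) and TGFA (1.10, 1.45 and 0.55) had the same directions on either scale. Capitals mark the letters TGACGTCA (the cAMP response element, which reads the same on both strands) and TATAAA (the TATA box), each searched on both strands; the 2 motifs do not overlap.

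AREG promoter, chr4:74444886-74445185, plus strand: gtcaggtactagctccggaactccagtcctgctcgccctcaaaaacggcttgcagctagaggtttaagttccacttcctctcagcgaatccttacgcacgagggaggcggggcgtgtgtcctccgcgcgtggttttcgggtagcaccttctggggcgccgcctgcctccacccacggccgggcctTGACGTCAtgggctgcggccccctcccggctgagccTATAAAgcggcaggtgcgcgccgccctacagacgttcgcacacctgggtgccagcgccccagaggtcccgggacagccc

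EREG promoter, chr4:74364895-74365194, plus strand: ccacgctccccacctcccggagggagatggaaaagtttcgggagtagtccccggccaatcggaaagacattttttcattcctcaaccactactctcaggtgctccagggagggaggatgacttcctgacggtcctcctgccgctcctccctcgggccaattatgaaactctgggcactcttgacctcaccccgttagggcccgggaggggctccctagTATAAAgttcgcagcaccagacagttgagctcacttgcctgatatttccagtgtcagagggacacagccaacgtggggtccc

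In AREG the cAMP response element begins 65 bases and the TATA box 29 bases before the start site, and in EREG a TATA box begins 32 bases before it. Of 35116 promoter windows of the same length, 1.85% held TGACGTCA and 11.5% held TATAAA on either strand. The windows of FGFR4, MET, IGF1R, ERBB2 and INSR held neither string, and 1 of the 2 windows of EGFR held TATAAA. A match is a description of these letters only.

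The genes around the receptors were read from 7 lists. No gene of any list passed the adjusted threshold in the deposited or in the scaled values. With the replicate block, 1 of 15 tested genes of co-receptors, ligand processing and ligand binding and 1 of 24 tested negative regulators passed, both lower with TP53TG1, against 0.91% of all tested genes. The first was SPINT2, an inhibitor of the proteases that activate HGF, at 1.78, 3.19 and 5.65 FPKM in control and 0.07, 3.88 and 0.25 FPKM with TP53TG1 (log2 fold change -1.19, adjusted p = 0.0296 with the block, limma). Its values come from short forms (mean length 413 nt weighted by FPKM) and an estimated 4 to 42 fragments per library, so this call rests on few reads. The second was ERRFI1, a feedback inhibitor that binds the EGFR kinase, at 123, 221 and 274 FPKM in control and 54.8, 220 and 74.5 FPKM with TP53TG1 (log2 fold change -1.01, adjusted p = 0.0444 with the block, limma). In both genes replicates 1 and 3 were low with TP53TG1 and replicate 2 was close to or above its control, and with block and scaling together neither passed (adjusted p = 0.889 for each, limma).

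Among 40 other receptor tyrosine kinases, 14 were tested, with a median log2 fold change of -0.38 against -0.35 for all tested genes. FGFRL1, an FGF receptor without a kinase, had the highest mean over the 6 libraries (41.8 ± 3.73 FPKM in control and 30.8 ± 10.2 FPKM with TP53TG1, SD, n = 3), followed by the ephrin receptors EPHA2 (35.3 ± 15.3 and 31.4 ± 20 FPKM) and EPHB4. FGFR3 lay at 4.07 to 4.54 FPKM in control and 1.70 to 3.47 FPKM with TP53TG1, without overlap (log2 fold change -0.52, adjusted p = 0.748, limma). It was the 1 of the 14 without overlap on either scale. Of all tested genes, 13.3% lay wholly lower in deposited and 2.15% in scaled FPKM. MERTK, which acts in the uptake of dying cells, had a log2 fold change of -0.73 and overlapping groups. Among 17 other ligands 7 were tested, with a median of -0.34. NRG1 was higher in the TP53TG1 library of each pair, and after scaling its groups did not overlap, at 8.03 to 11.3 scaled FPKM in control and 13.6 to 20.7 with TP53TG1 (log2 fold change 0.75, 95% interval 0.15 to 1.35, adjusted p = 1, limma). NRG1 was the 1 of the 7 tested ligands without overlap after scaling, and 2.01% of all tested genes lay without overlap in that direction. Of all tested genes, 1.24% in deposited and 12.3% in scaled FPKM were higher in all 3 pairs. BTC had a log2 fold change of -0.71, and its groups did not overlap in deposited FPKM (5.59 to 9.74 against 3.37 to 4.83) but did after scaling. It was the 1 of the 7 tested ligands wholly lower in deposited FPKM, against 13.3% of all tested genes.

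The 15 tested co-receptors, processing and binding genes had a median of -0.19 and, after scaling, of 0.18, against -0.02 for all tested genes. Among them the IGF-binding proteins were the most abundant: IGFBP2, IGFBP4 and IGFBP6 had control means of 292 ± 128, 234 ± 98.2 and 151 ± 64.6 FPKM (SD, n = 3). IGFBP7 lay at 0.5 to 0.69 FPKM in control and 1.18 to 2.28 FPKM with TP53TG1, without overlap (log2 fold change 0.66, adjusted p = 0.748, limma). Its mean was 0.583 FPKM in control and 1.55 FPKM with TP53TG1, so it reached the level for testing only through the TP53TG1 group. An estimated 14 to 53 fragments per library lay behind these values. IGFBP7 was the 1 of the 15 wholly higher in deposited FPKM, against 0.428% of all tested genes. In scaled FPKM 2 of the 15, IGFBP7 among them, were wholly higher, against 2.01%. Because of how IGFBP7 entered the test, these counts are description only. All 18 adaptors and docking proteins were tested, with a median of -0.42. SHC1, GRB2 and PTPN11, which link receptors to RAS, led them at control means of 89.3 ± 10.7, 75.4 ± 20.3 and 51.5 ± 25.1 FPKM (SD, n = 3), and GAB2 and GRB10 had log2 fold changes of -0.72 and -0.65.

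The 24 tested negative regulators, of 25 listed, had a median of -0.42, with ERRFI1 the most abundant, then PTPN12 and PTPN2. RNF41, a ubiquitin ligase for ERBB3, had a log2 fold change of -0.92 (adjusted p = 0.748, limma). Of 14 genes that MAPK signalling drives, 13 were tested, with a median of -0.43 before and -0.17 after scaling. FOSL1, an AP-1 subunit, lay at 147, 119 and 255 FPKM in control and 188, 200 and 234 FPKM with TP53TG1. CCND1 (cyclin D1) had means of 132 ± 42.9 and 105 ± 42.0 FPKM and IER3 of 62.3 ± 5.79 and 72.4 ± 31.1 FPKM (SD, n = 3). ETV4 and ETV5, transcription factors induced by MAPK signalling, had log2 fold changes of -0.73 and -0.79 and were lowest, relative to their control, in pair 3, as AREG and EREG were. This was not particular to them, since ERRFI1, RNF41, GRB10 and MERTK of other lists were too, on either scale. CCND1 was lowest in pair 1 in deposited FPKM and in pair 3 after scaling. The share of all tested genes lowest in pair 3 was not counted. None of the MAPK genes passed in deposited FPKM, and scaling brought ETV4 and ETV5 to -0.35 and -0.40.

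The genes most like MET over the 6 libraries, by Pearson correlation of log2(scaled FPKM + 1) among 8805 genes that averaged 5 FPKM or more, were HIPK2, KIF5B and BAZ2A, each at r = 0.998. All 3 were low in both libraries numbered 1, as with KIF5B at 22.0 and 11.3 FPKM against 49.3 to 64.7 FPKM in the others. Nearest among the other members were IGF1R (0.907) and EGFR (0.883), whose transcripts are the longest of the 9. For AREG the nearest genes were PPARG (0.989), TBPL1 (0.978) and G0S2 (0.977), and EREG stood at 0.521. With 6 libraries that share the split by replicate number, these values describe the order of the libraries.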

How the data were processed

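Expression was measured in 6 RNA-seq libraries. The authors deposited 1 value per transcript and library; the submitters' processing notes name HISAT2, StringTie and the build GRCh38.p10, with no versions. The unit is not given in the sources used here. Deposited values were taken as FPKM, since they are not whole and library sums differ (599081 to 890541). Coverage per base, which StringTie also writes, would meet both conditions, and levels and depth would then have another meaning. Values of the transcripts of a gene were summed, and blank symbols (0 to 88000 rows per library) were filled by transcript ID. Positions and lengths came from GENCODE release 29 (GRCh38), which held 99.8% of the transcripts.

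The 12853 genes that averaged 1 FPKM or more were fitted on log2(FPKM + 1) with limma 3.58.1 (R 4.3.3, mean-variance trend), TP53TG1 minus control, with Benjamini-Hochberg adjustment over all of them and a threshold of 0.05. This scale understates changes of low genes. The fit was tested on simulated data. Tables were made with Python 3.11.15. An exact 0 may be a failed estimate. Depth was read from transcripts of 300 to 1500 nt, as percentile 5 of FPKM times kb, leaving out values under 0.03 FPKM and products above 0.5, limits set after the values were seen.

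The members and lists were chosen with earlier results of these data known. Median-of-ratios factors came from 10416 genes with at least 1 FPKM in every library; of 4 gene sets looked at, this one was taken because it gave the factors of the earlier processing. Named were all members, TP53TG1, from each list the 3 tested genes with the highest mean and the 2 with the smallest p, list genes past the threshold, and the 3 genes most correlated with MET and AREG.

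The labels number the replicates 1 to 3 in each group, without a stated meaning. Deviations from the group means correlated at 0.71, 0.562 and 0.289 between libraries of the same number, all above the limit of 0.1, so the numbers were read as pairs; control replicate 3 with TP53TG1 replicate 2 reached 0.4 and control replicate 2 with TP53TG1 replicate 3 reached 0.302, both above the value for the libraries numbered 3, which are thus not marked out as a pair. The blocked fit had 2 residual and infinite prior degrees of freedom.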

Additional observations from a re-analysis of the deposited data

How the results depend on the processing

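None of the 9 tested receptor and ligand genes passed the adjusted threshold under any of 27 alternatives to the fit (26 for INSR, which is not tested at a mean of at least 5 FPKM; the lowest adjusted p was 0.203), and FGFR4 and IGF1R kept a negative log2 fold change in all of them. Alternatives added after seeing the data were scaling without both libraries numbered 1, scaling with each library left out, the replicate block with TPM, scaling factors from tested genes above 0 in every library, and gene sums without IGF1R-204 and INSR-203 (with and without block and scaling). These sums gave INSR 0.05 after scaling, with or without the block, and left the values of EGFR (0.20) and the counts under each setting as given here. The log2 fold change of EGFR was positive after scaling (0.20), with block and scaling (0.20), with TPM (0.09), with block and TPM (0.09), with the other factors (0.21), without both libraries numbered 1 (0.08) and with that and scaling (0.24). Leaving out 1 library, with or without scaling, gave -0.58 to 0.65 for EGFR, -0.70 to 0.01 for ERBB2, -1.06 to 0.01 for ERBB3, -1.71 to 0.97 for MET, -0.85 to 0.09 for INSR, -0.83 to 0.43 for AREG, -1.06 to 0.26 for EREG, -0.92 to 0.10 for ETV4 and -0.92 to 0.27 for HNF4A, and HNF4A was at 0.00 with scaling and without both libraries numbered 1. MET was at -1.71 without control replicate 1. The cause of these changes was not tested beyond the samples left out. The median of the 9 genes ran from -0.92 to 0.09 when 1 library was left out.

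The replicate block raised the count of genes called from 1 to 192, and 1 gene passed in each of 2 lists (SPINT2 and ERRFI1); it changed no call of the 9 genes. The count was 7 with block and scaling, 9 with block and TPM, 2 with scaling by either set of factors, 2 at a mean of at least 5 FPKM, 0 with no filter (827 at an unadjusted p under 0.05) and 0 to 1 with 1 library left out. The difference in the INSR exon 11 share ran from -12.5 to 2.01 percentage points with 1 library left out. That in the AREG and EREG share ran from -1.02 to 2.25, and was -0.915 without both libraries numbered 1.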

Other observations

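MET lies in a stretch of chromosome 7 whose other genes were also read, a choice made after seeing the level of MET. CAV1 and CAV2, which code for the coat proteins of caveolae and lie before MET, had 1549 to 3255 FPKM and 711 to 1395 FPKM over the 6 libraries and ranked 30th and 108th of 58233 genes by mean, against 116th for MET. TES, before CAV2, had 183 to 684 FPKM and ranked 216th. On the other side CAPZA2 had 10.6 to 48.5 FPKM (2878th) and ST7 3.24 to 9.24 FPKM (7587th). DNA copy number was not measured here.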
